A study of Mus musculus with 32 samples.

Results

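The proteasome genes of mouse muscle, meaning the subunits, activators and the inhibitor of the proteasome, were taken as the protein-coding genes whose symbol begins with Psma, Psmb, Psmc, Psmd, Psme or Psmf. There were 46 of them among 55487 genes, and the 3 immunoproteasome subunits, Psmb8, Psmb9 and Psmb10, were kept apart from the other 43. Among the 43, Psmc3ip shares only the beginning of its name: it encodes a meiotic recombination factor and is no proteasome subunit. A further pair was near absent. Psma8, the alpha subunit of the testis proteasome, had 30 counts in all 32 libraries together, and Psmb11, the beta subunit of the thymus proteasome, had 19.6. Both fell under the filter on low counts, so 41 genes outside the immunoproteasome and all 3 immunoproteasome genes were tested in each muscle.

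The proteasome is the protease that degrades most ubiquitin-tagged proteins. Its barrel, the 20S core, is built of alpha rings that gate the entrance and beta rings that hold the catalytic sites, and the 19S particle on its end recognises ubiquitin, unfolds the substrate with a ring of ATPases and feeds it in. Other activators (Psme1 with Psme2, Psme3, Psme4) can take the place of the 19S particle, and interferon-induced beta subunits can replace the catalytic ones to form the immunoproteasome. In skeletal muscle, proteasomal breakdown of myofibrillar protein is a main route of atrophy, and the transcription factor Nfe2l1 drives subunit genes when proteasome activity is short.

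Muscles came from 16 mice, 4 of each genotype: control, Acvr1b KO, Tgfbr1 KO and double KO, in which both genes were deleted in myofibres. Acvr1b and Tgfbr1 encode type I receptors for activins, myostatin and TGF-β. Mice were 6 weeks old when tamoxifen induced the deletion. From every mouse 2 muscles of the left leg were taken 3 months later, the fast-type gastrocnemius medialis and the slow-type soleus, which gave 8 groups of 4 libraries of polyA RNA. The promoter that drives the deletion, the alleles and the treatment of the control mice are not given in the sources used here. Whole muscles were homogenised, so that mononuclear cells of the tissue were measured together with myofibres and fewer cells of a type and less RNA per cell cannot be told apart. The 4 double KO mice carry animal numbers separate from the range of the other 12, and genotype and cohort cannot be told apart.

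Total counts per library ran from 16535498 to 54456977. Slow myofibre markers summed to 25200 to 29900 CPM (the count relative to the scaled size of its library) in control soleus and 1970 to 2990 in control gastrocnemius. Acvr1b measured 107 ± 10 CPM in control gastrocnemius (mean ± SD, n = 4), 25.6 ± 1.6 in Acvr1b KO and 17.5 ± 4.1 in double KO. Tgfbr1 measured 28.5 ± 6.75 CPM in control gastrocnemius and 29.5 ± 3.33 in Tgfbr1 KO, and in double KO it was 47.8 ± 7.38 (38.4 to 56.3), above all controls (22.9 to 37.5). These values are not lower where the labels give a deletion of Tgfbr1; the count covers all exons of the gene and does not check the deletion. A set of 4 libraries stood apart from their group, and counts of calls that change without them are given both ways: gastrocnemius control 1, where mitochondrial genes took 26% of the counts (10.4% to 13.9% in controls 2 to 4), soleus Acvr1b KO 1, with a leukocyte marker sum of 32.4 CPM against 85.9 to 106, and both libraries of double KO mouse 1.

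Levels were compared between genes per length, as CPM per kilobase of exon. The length covers all annotated exons of a gene, from 899 bases for Psmb5 to 7265 for Psmd1 among the core and 19S subunits. Transcripts present in muscle may be shorter, so the range and order of genes depend on this length. In control gastrocnemius the 31 subunits of the 20S core and 19S particle lay within a range of 5.14 times, from 14.8 ± 1.54 for Psmd13 to 76.2 ± 2.51 for Psmd8, with a median of 32.8. Psmd8, a lid subunit of the 19S particle, was followed by the alpha subunit Psma6 (74.3 ± 1.45) and the ATPase Psmc5 (73.5 ± 6.55), and these 3 did not differ beyond their spread. All 31 lay above the assembly chaperones Psmd10 (3.76 ± 0.297), Psmd5 (1.87 ± 0.118) and Psmd9 (1.84 ± 0.149) and the inhibitor Psmf1 (1.88 ± 0.269 per kilobase). The immunoproteasome genes were at the low end, with Psmb10 at 1.77 ± 0.241, Psmb8 at 0.376 ± 0.0902 and Psmb9 at 0.0854 ± 0.0535 per kilobase. Psmc3ip, at 0.626 ± 0.123 per kilobase, lay among them.

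**Figure D1:**
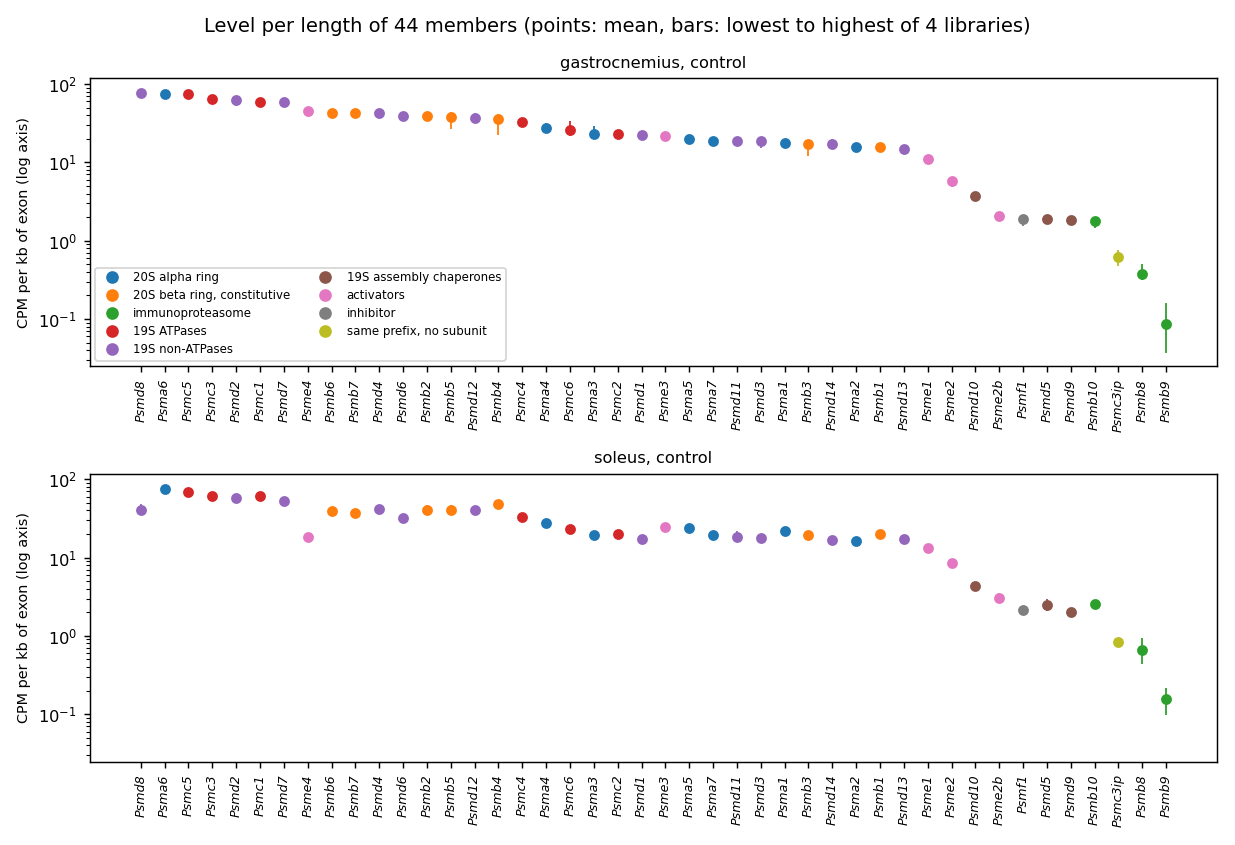
Level per length (CPM per kilobase of exon, log axis) of the 44 measured genes in control gastrocnemius (top) and control soleus (bottom), both ordered by the gastrocnemius mean; points are means and bars run from the lowest to the highest of 4 libraries, coloured by role. The 20S and 19S subunits form a plateau between 14.8 and 76.2 in gastrocnemius, chaperones, the inhibitor and the immunoproteasome lie under it, and Psmd8 and Psme4 drop out of their place in soleus.

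Promoter sequences were taken from RefSeq (GRCm38.p6) for 39 of the 46 genes, as the 250 bases before the annotated start. They are shown for Psmb5, Psmb6 and Psmc6, which carry the site of the Nfe2l1 family, and for the genes that differed most between muscles. Those of Psmd9 and Psmd12, which also carry it, are not printed here. The core of the antioxidant response element, TGACNNNGC, was searched on both strands (GCNNNGTCA on the other strand) and occurred in 5 of the 39 windows (12.821%): Psmb5, Psmb6, Psmc6, Psmd9 and Psmd12. It occurred in 10.1% of 27025 windows of all genes, so the share among proteasome genes was near that of genes at large. The CCAAT box (ATTGG on the other strand) was found in 15 of the 39 (38.462%) against 34.5% of all, and TTCNNNGAA, the core of the STAT site, in 1 of the 39 (2.564%, Psmb8) against 7.18%. A match describes these letters only. For Psmb5 (GRCm38.p6 chr14:54618023-54618245, minus strand), Psmb6 (chr11:70525107-70525356, plus strand) and Psmc6 (chr14:45329574-45329787, plus strand) the part of the window outside annotated exons reads as follows, with the element's core in capitals.
Psmb5: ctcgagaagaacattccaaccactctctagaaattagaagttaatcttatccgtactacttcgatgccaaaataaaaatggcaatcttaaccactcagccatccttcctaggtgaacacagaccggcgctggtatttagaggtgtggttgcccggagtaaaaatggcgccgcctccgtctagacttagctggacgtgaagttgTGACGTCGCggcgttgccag
Psmb6: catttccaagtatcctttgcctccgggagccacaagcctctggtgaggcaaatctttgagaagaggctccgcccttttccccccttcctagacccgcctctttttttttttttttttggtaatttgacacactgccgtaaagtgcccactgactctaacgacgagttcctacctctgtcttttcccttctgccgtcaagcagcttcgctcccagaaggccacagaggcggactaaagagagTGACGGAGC
Psmc6: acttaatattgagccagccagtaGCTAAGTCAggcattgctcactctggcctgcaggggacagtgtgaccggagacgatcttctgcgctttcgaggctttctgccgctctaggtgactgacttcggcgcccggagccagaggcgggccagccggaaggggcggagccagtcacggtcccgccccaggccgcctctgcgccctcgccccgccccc
The core lay close to the start in Psmb5 and Psmb6 and far from it, on the other strand, in Psmc6. None of the 5 genes with the core passed the threshold in double KO against control in either muscle, nor between the control muscles. Psmc6 and Psmd12 did pass in double KO gastrocnemius without control 1 and without the 4 libraries that stood apart, and without the latter Psmd12 also passed between the control muscles. Psme4 (chr11:30771525-30771725, plus strand) and Psmd8 (chr7:29180702-29180923, minus strand), the genes with the largest differences among those called between the control muscles, held none of the 3 motifs.
Psme4: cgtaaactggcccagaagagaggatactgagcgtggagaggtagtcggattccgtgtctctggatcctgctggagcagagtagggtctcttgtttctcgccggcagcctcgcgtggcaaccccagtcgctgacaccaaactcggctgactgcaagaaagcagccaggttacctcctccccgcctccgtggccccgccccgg
Psmd8: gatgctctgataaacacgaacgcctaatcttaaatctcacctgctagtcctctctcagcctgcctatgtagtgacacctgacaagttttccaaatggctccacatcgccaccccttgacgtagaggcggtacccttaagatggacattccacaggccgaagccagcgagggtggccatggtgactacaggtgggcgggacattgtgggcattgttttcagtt

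Soleus and gastrocnemius differed in individual proteasome genes, in both directions. In control mice, 8 of the 41 genes were higher in soleus (19.5%, against 20.5% of 18726 genes) and 6 were lower (14.6%, against 20%), by edgeR's quasi-likelihood test with a Benjamini-Hochberg adjusted p under 0.05. The median log2 difference of the 41 was 0.04, beside 0.07 over all genes. The same comparison was then read in the mice of the other genotypes, which share no library with the controls. There 6 of the 41 were higher and 5 lower in Acvr1b KO (22.2% and 19.3% of all genes), 5 and 6 in Tgfbr1 KO (21.1% and 19.4%), and 4 and 5 in double KO (21.6% and 18.1%). Without the 4 libraries that stood apart there were 13 higher and 7 lower in controls, 8 and 9 in Acvr1b KO, 10 and 10 in Tgfbr1 KO, and 5 and 14 in double KO, whose median went from 0.02 to -0.12. Over all genes 4363 of 18833 were then higher and 4158 lower in controls, from 3837 and 3736 of 18726. Counts over all genes for the other genotypes in this setting are not reported here.

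Psme4, the large single-chain activator that caps the core without ATP, had the largest difference of the 44 genes. It measured 413, 330, 431 and 345 CPM in the gastrocnemius of control mice 1 to 4 and 155, 162, 147 and 149 in their soleus. Every soleus value was under every gastrocnemius value. The log2 difference was -1.31 (SE 0.110, fold 0.404, edgeR adjusted p = 1.29e-10). It was -1.40, -1.45 and -1.01 in Acvr1b KO, Tgfbr1 KO and double KO, each past the threshold, and soleus was lower in 16 of 16 mice, by -1.77 to -0.83. Psme4 (ENSMUSG00000040850) spans 30771726 to 30880361 on the plus strand of chromosome 11.

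Psmd8 (ENSMUSG00000030591, chromosome 7, 29174188 to 29180701, minus strand), which had the highest mean per length in control gastrocnemius, measured 225, 244, 230 and 233 CPM there and 112, 122, 148 and 116 in soleus. The groups did not overlap. The log2 difference was -0.90 (SE 0.139, adjusted p = 5.71e-06) in controls, and -0.87, -0.89 and -0.56 in the other genotypes in the same order. Per length its place among the 31 subunits moved with it, from 76.2 to 40.7 ± 5.41 CPM per kilobase, while Psma6 measured 74.1 ± 3.06 in soleus.

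A further 3 subunits were lower in soleus in the mice of all 4 genotypes and in 16 of 16 mice. Psmd1, a large scaffold subunit of the 19S base, measured 178, 154, 164 and 154 CPM in control gastrocnemius and 118, 131, 123 and 122 in control soleus, without overlap (log2 -0.39, SE 0.103, adjusted p = 0.0031). Psmd6, a lid subunit, differed by -0.30 (SE 0.0647, adjusted p = 0.000423). Psmb7, the catalytic beta subunit that cuts after basic residues, differed by -0.20 (SE 0.0643, adjusted p = 0.0133). The alpha subunit Psma3 was called in controls (-0.27, SE 0.101, adjusted p = 0.0358) and in Tgfbr1 KO; gastrocnemius control 1 held 112 CPM against 78.8 to 90.0 in the other controls, and without it the difference was -0.17 (adjusted p = 0.185). The Psma3 call was also lost without gastrocnemius control 3, soleus control 1 or soleus control 4 (adjusted p 0.0575, 0.0715 and 0.121). Overlapping genes on the same strand are annotated at Psmd1 and Psmb7, and reads of Psma3 and Psmb7 were in part shared with other places in the genome.

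Among the genes higher in soleus, the structural core subunits Psma1 and Psmb1 and the activator Psme1 passed the threshold in the mice of all 4 genotypes. Psmb1 measured 66.7, 74.6, 76.6 and 70.0 CPM in control gastrocnemius and 88.1, 91.1, 99.0 and 91.8 in control soleus, which did not overlap (log2 0.36, SE 0.0923, adjusted p = 0.00235). Psma1 was higher by 0.30 (SE 0.0847, adjusted p = 0.00537) and Psme1 by 0.26 (SE 0.0849, adjusted p = 0.0163), a call lost without soleus control 1 or 2 (adjusted p 0.0572 and 0.071). Psma1, Psmb1, Psmb4, Psme1 and Psme2 were higher in the soleus of 16 of 16 mice. Psme1 and Psme2 together form the heptameric activator induced by interferon-γ.

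Psme2 measured 8.59, 10.9, 10.8 and 10.7 CPM in control gastrocnemius and 16, 14.4, 17.1 and 13 in control soleus, again without overlap. Its log2 difference was 0.56 (SE 0.106, adjusted p = 9.3e-05) in controls, 0.59 and 0.47 in the single knockouts, and 0.22 in double KO, where it missed the threshold (adjusted p = 0.0917). Psme2b, a close copy of Psme2 whose reads may not be told apart from it in full, was higher by 0.55 (SE 0.132, adjusted p = 0.00142). Overlapping genes on the same strand are annotated at Psme2b and at Psmd13. The chaperone Psmd5 was higher by 0.43 (SE 0.124, adjusted p = 0.00699), a call lost without soleus control 2 (0.30, adjusted p = 0.062). Psmb4 was higher by 0.40 (SE 0.141, adjusted p = 0.023), but gastrocnemius control 1 held 43.6 CPM of it against 77.4 to 80.7 in the other controls; without that library the difference was 0.20 (adjusted p = 0.204), and it also missed the threshold without soleus control 2 or 3 (adjusted p 0.0609 and 0.0717). Psmd13 (0.21, SE 0.0842, adjusted p = 0.0484) missed the threshold once the mouse was added to the fit as a block (adjusted p = 0.0572), and in 6 of the 8 fits that left out 1 control library. With the mouse as a block the alpha subunit Psma5, higher in the soleus of 15 of 16 mice, also passed. Of the 19S ATPases, Psmc1 to Psmc6, none was called in the control muscles (-0.22 to 0.04). Psmc2 (-0.22), lower in the soleus of 15 of 16 mice, passed with only the control libraries in the fit and without the libraries that stood apart.

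**Figure D2:**
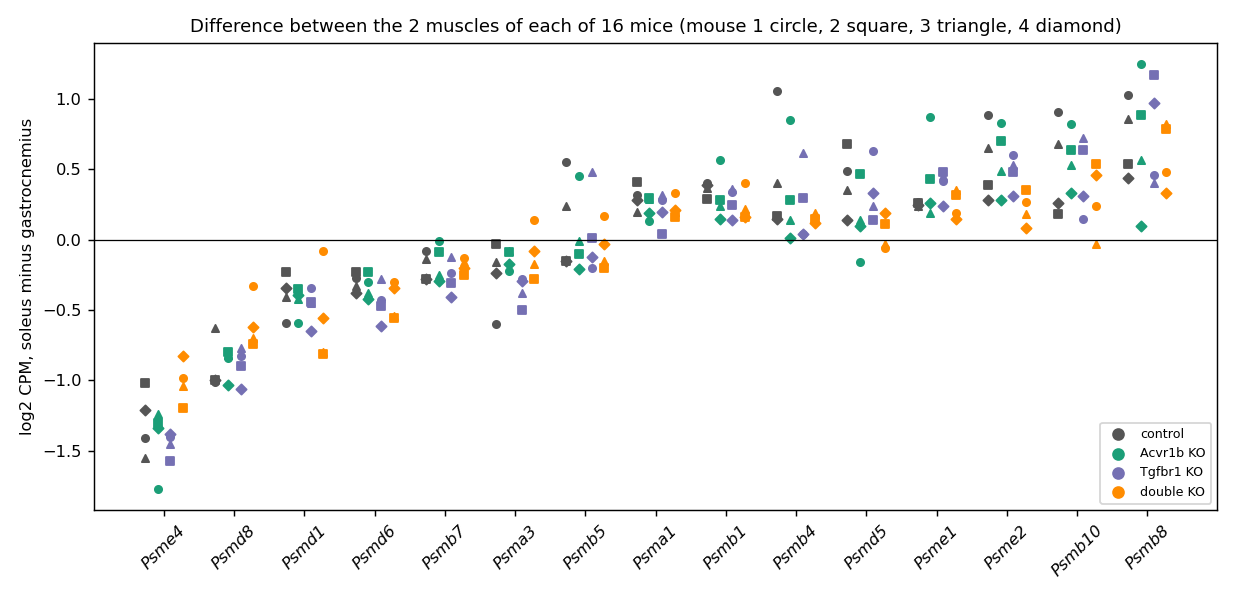
Difference in log2 CPM between the soleus and the gastrocnemius of each of 16 mice (y axis) for 15 genes (x axis), coloured by genotype with the marker shape giving the mouse. Psme4 lies between -1.77 and -0.83 and Psmd8 between -1.06 and -0.33 in all 16 mice, while Psma1 and Psmb1 lie above 0 in all 16.

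Among the immunoproteasome genes 2 of 3 were higher in control soleus. Psmb8, which replaces the chymotrypsin-like subunit Psmb5, measured 1.20, 1.11, 1.72 and 1.06 CPM in control gastrocnemius and 2.56, 1.65, 3.19 and 1.48 in control soleus. The ranges overlapped, and the log2 difference was 0.82 (SE 0.289, edgeR adjusted p = 0.0245). Psmb10, which replaces Psmb7, rose from 3.02 ± 0.410 to 4.33 ± 0.480 CPM without overlap (log2 0.52, SE 0.194, adjusted p = 0.0338). Psmb9, which replaces Psmb6, had 649 counts in all libraries together and differed by 0.91 (SE 0.483, adjusted p = 0.133); with the mouse as a block its adjusted p was 0.0442. The call of Psmb8 was lost without gastrocnemius control 1, 2 or 4 or soleus control 1 or 3 (log2 0.59 to 0.77, adjusted p 0.0602 to 0.134). The call of Psmb10 was lost without gastrocnemius control 1 or 3 or soleus control 1 or 3 (0.41 to 0.50, adjusted p 0.0696 to 0.133), and Psmb9 passed without gastrocnemius control 3 (1.35, adjusted p = 0.0445).

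Per length the immune subunits stayed a small part of each pair. The shares depend on the exon lengths used: 3381 bases for Psmb8 and 899 for Psmb5, 3660 for Psmb9 and 1872 for Psmb6, 1705 for Psmb10 and 3421 for Psmb7. These cover all annotated exons of a gene, and the transcripts present may be shorter. The comparison of muscles within a pair does not depend on them. Psmb8 was 1.03 ± 0.338% of Psmb5 in control gastrocnemius and 1.59 ± 0.475% in control soleus. Psmb9 was 0.204 ± 0.143% and 0.396 ± 0.108% of Psmb6. Psmb10 was 4.13 ± 0.310% of Psmb7 in gastrocnemius and 6.81 ± 0.699% in soleus, and the soleus libraries (6.02% to 7.61%) all lay above the gastrocnemius libraries (3.77% to 4.43%). Summed leukocyte markers were 58.9 to 68.8 CPM in control gastrocnemius and 48.0 to 103 in control soleus, and 3 of 11 tested markers were higher in soleus (20.5% of all genes). Endothelial markers summed to 336 to 396 CPM in control gastrocnemius and 530 to 610 in control soleus, and Schwann cell markers to 42.3 to 68.4 and 88.8 to 219, both without overlap. Of these lists 6 of 8 and 1 of 7 genes were higher, and 6 of 6 adipocyte markers (11.4 to 30.5 and 26.1 to 123 CPM in sum). None of the 13 markers was at 0, and Cd3e, which defines T cells, averaged under 1 CPM in all groups. The part of these cells in the immunoproteasome levels was not tested.

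Genes that feed the proteasome also differed between the control muscles. Of 15 ubiquitin ligases known from muscle atrophy, 9 were lower in control soleus and 0 higher, where 20% of all genes were lower and 20.5% higher. Trim63, the ligase MuRF1, measured 1740, 1640, 1440 and 1480 CPM in gastrocnemius and 240, 302, 396 and 269 in soleus (log2 -2.38, SE 0.428, adjusted p = 4.99e-05), and Fbxo32, or atrogin-1, was lower by -1.56 (SE 0.284, adjusted p = 5.86e-05). Of 8 shuttle factors, which carry ubiquitinated proteins to the 19S particle, 6 were lower and 0 higher; Ddi2, which is also the protease that activates Nfe2l1, was lowest at -1.14 (SE 0.156, adjusted p = 9.14e-07). Nfe2l1 itself was higher in soleus, at 749 ± 39.4 CPM in gastrocnemius and 1110 ± 60.9 in soleus (log2 0.57, SE 0.115, adjusted p = 0.000213). Of the 6 ubiquitin and E1 genes 3 were lower and 1 higher, with the E1 enzyme Uba6 at -0.82 (SE 0.219, adjusted p = 0.00348). Ecpas, an adaptor that binds the assembled proteasome, was lower by -0.83 (SE 0.0778, adjusted p = 9.45e-10).

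Few proteasome genes differed past the threshold between double KO and control gastrocnemius, each by a small amount. Against control, 5 of the 41 genes were higher (12.2%, against 11.4% of 17536 genes) and 1 was lower (2.44%, against 9.59%), so the share that rose was near that of all genes. The median log2 change of the 41 was 0.11 beside 0.00 over all genes, and 32 of them were above 0. A set of 9 genes had all double KO libraries above all controls and 1 had all under them, which was so for 10.4% and 10.9% of all genes. No alpha subunit and no 19S ATPase passed with all libraries. Without the libraries that stood apart 6 genes were higher, the ATPase Psmc6 with Psmd1, Psmd5, Psmd6, Psmd12 and Psmd14, and Psmd8 was the 1 lower. Over all genes 2254 of 17693 were then higher and 2100 lower, from 1991 and 1682 of 17536. Without control 1 alone the same 6 were higher and 0 lower (1984 and 1888 of 17726 genes).

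Psmd5, a chaperone that holds the 19S base during assembly and is not part of the finished particle, had the largest rise of the 5 genes called higher. It measured 12.7, 13.2, 14.7 and 13.4 CPM in controls and 21.8, 17.4, 18.7 and 16.8 in double KO. All 4 double KO libraries were above the other 12 of the muscle, whose highest was 15.4. The log2 change was 0.48 (SE 0.0901, fold 1.39, adjusted p = 0.00121), and 0.40 and 0.35 against Acvr1b KO and Tgfbr1 KO. Psmd5 (ENSMUSG00000026869) lies on chromosome 2, 34849734 to 34874968, minus strand.

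Psmd1 (ENSMUSG00000026229, chromosome 1, 86064387 to 86139151, plus strand) measured 192, 204, 204 and 195 CPM in double KO, above all 4 controls and above the highest single knockout library, at 189. Its log2 change was 0.31 (SE 0.0706, adjusted p = 0.00542). Psmd6 measured 122, 129, 132 and 123 CPM against 102, 108, 114 and 112 in controls, without overlap (0.22, SE 0.0623, adjusted p = 0.0173). Psmd1 and Psmd5 passed under each of the 14 alternatives run, and Psmd6 missed the threshold in 3: without double KO 3 (0.21, adjusted p = 0.0557), without the filter on low counts (adjusted p = 0.0779) and with only the groups compared (adjusted p = 0.0878). The core subunit Psmb1 measured 94.1, 79.8, 79.4 and 80.4 CPM against 66.7, 74.6, 76.6 and 70.0, also without overlap (0.23, SE 0.0728, adjusted p = 0.036), and double KO 1 was the highest. Its call was lost without double KO 1 (0.15, adjusted p = 0.0977) or without control 1, 2 or 4 (0.19, 0.24 and 0.20), and without the libraries that stood apart the change was 0.12 (adjusted p = 0.134).

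Psme2 and Psme4 went opposite ways. Psme2 measured 13, 11.9, 12.2 and 13.1 CPM in double KO against 8.59, 10.9, 10.8 and 10.7 in controls, with no overlap (0.31, SE 0.0982, adjusted p = 0.0358). Psme4 measured 282, 314, 312 and 305 CPM in double KO against 413, 330, 431 and 345 in controls. The highest double KO library was just under the lowest control, and the log2 change was -0.31 (SE 0.103, adjusted p = 0.0401). Both calls were near the threshold: without the libraries that stood apart the changes were 0.20 (adjusted p = 0.139) and -0.24 (adjusted p = 0.116), and over all alternatives the adjusted p ran from 0.0255 to 0.139 for Psme2 and from 0.0203 to 0.122 for Psme4. Psme2 missed the threshold when control 1 or 4, or double KO 1, 3 or 4, was left out (0.22 to 0.32), and Psme4 without any double KO library or without control 1 or 3 (-0.33 to -0.24). Psme1, the partner of Psme2, changed by 0.11 (SE 0.0793, adjusted p = 0.336), Psme3, the nuclear activator, by -0.07 (SE 0.0707) and Psmf1, the inhibitor, by 0.06 (SE 0.101).

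**Figure D3:**
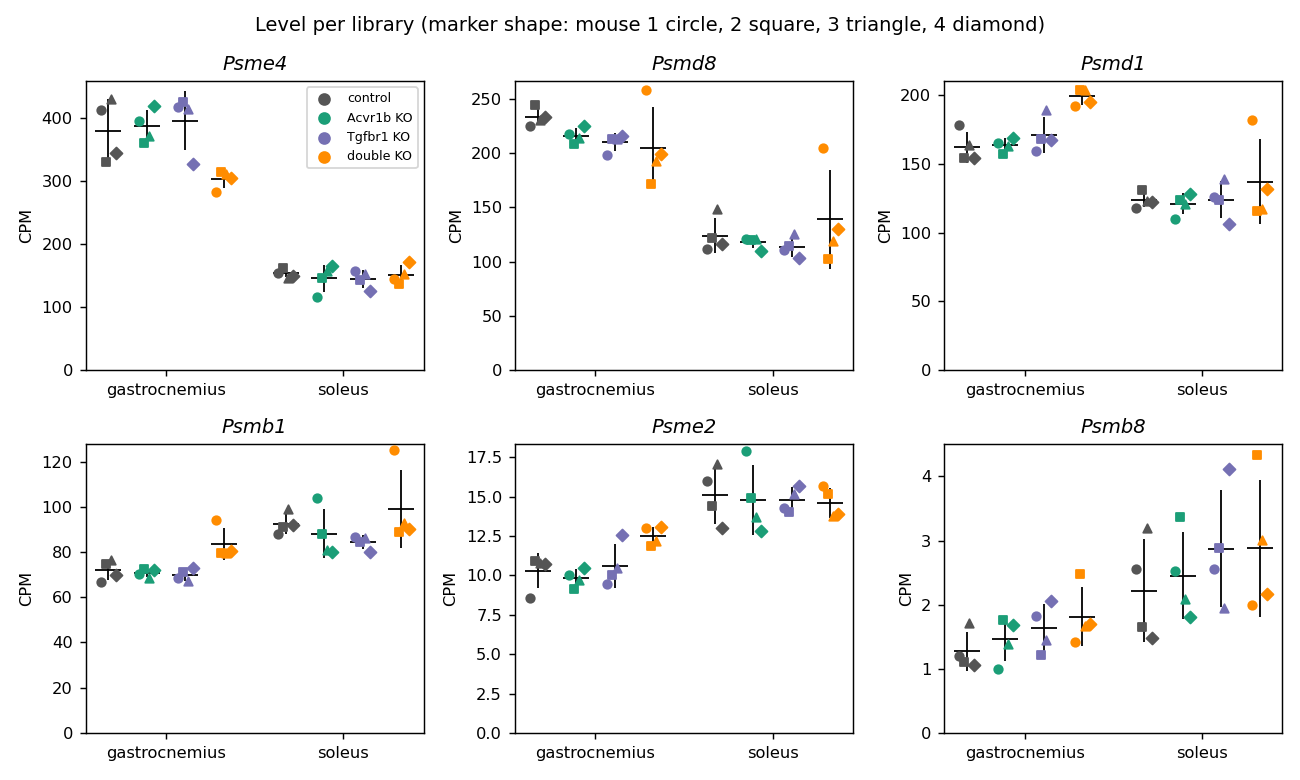
CPM per library (y axis, from 0) of 6 genes in both muscles; colour is the genotype, marker shape the mouse, horizontal ticks the mean and vertical bars the SD of 4 libraries. Psme4 falls from 380 to 154 between control muscles, Psmd1 sits at 192 to 204 in double KO gastrocnemius above all other gastrocnemius libraries, and double KO mouse 1 (circle) is the highest soleus library for Psmd8, Psmd1 and Psmb1.

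The catalytic subunits did not pass the test. Psmb5 changed by 0.26 (SE 0.133, adjusted p = 0.182), Psmb6 by -0.02 (SE 0.0698) and Psmb7 by -0.04 (SE 0.0606). Their immune counterparts had larger values with larger errors: Psmb8 0.54 (SE 0.229, adjusted p = 0.109), Psmb9 0.80 (SE 0.477, adjusted p = 0.255) and Psmb10 0.40 (SE 0.190, adjusted p = 0.148). By edgeR 0 of the 3 were called, with 1 at an unadjusted p under 0.05, beside 5929 of the 17536 genes tested. Psmb10 passed without double KO 1 (0.54, edgeR adjusted p = 0.0371) and Psmb8 without control 3 (0.7, edgeR adjusted p = 0.0472). Psmb8 measured 1.41, 2.47, 1.67 and 1.70 CPM in double KO, and the lowest 3 of these were under the highest control, 1.72. Of 18 tested antigen presentation and interferon genes 8 rose and 0 fell (11.4% and 9.59% of all genes), among them Irf1 (1.73 ± 0.290 to 3.85 ± 0.239 CPM, log2 1.16, SE 0.172, adjusted p = 0.000153) and Ifit1 (1.21, SE 0.250, adjusted p = 0.00249). Leukocyte markers moved with them: their sum was 82.5 to 152 CPM in double KO against 58.9 to 68.8 in controls, and 5 of 11 tested (Adgre1, C1qa, Cd68, Csf1r, Lyz2) rose. Other marker sums were lower in double KO gastrocnemius without overlap: slow myofibres 928 to 1500 CPM against 1970 to 2990, fast myofibres 121000 to 142000 against 152000 to 188000, endothelial cells 287 to 308 against 336 to 396, and Schwann cells 35.2 to 41.6 against 42.3 to 68.4. The part of any of these in the double KO values was not tested.

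Other genes of the pathway moved in both directions, and their counts stand beside 11.4% of all genes higher and 9.59% lower. Pomp, the chaperone that matures the 20S core, measured 73.0, 68.8, 67.1 and 66.9 CPM in double KO against 50.9, 56.4, 53.7 and 57.6 in controls, with no overlap (0.35, SE 0.0707, adjusted p = 0.00215), and was the 1 of 5 core chaperones to pass. Of 8 further subunits and cofactors with other names 2 rose and 1 fell; Usp14, the deubiquitinase bound to the 19S particle, rose by 0.57 (SE 0.143, adjusted p = 0.00963) and Zfand2a by 0.56. Of 8 shuttle factors 2 rose and 1 fell, with Sqstm1 higher by 0.38 (SE 0.114, adjusted p = 0.0271), a call lost without control 1 (0.32) and without the libraries that stood apart (0.15, adjusted p = 0.0716). Of the 15 atrophy ligases 3 fell and 0 rose, with Cblb at -0.53 (SE 0.133, adjusted p = 0.00986) and Stub1 at -0.36; Stub1 missed the threshold when control 2 or 4, or double KO 1 or 3, was left out (-0.36 to -0.29). Of 6 ubiquitin and E1 genes 1 rose, the polyubiquitin gene Ubb (0.27, SE 0.0843, adjusted p = 0.0291), and 1 fell. Ubb missed the threshold when double KO 1, double KO 4 or control 1 was left out (0.20, 0.28 and 0.20), and without the libraries that stood apart it was at 0.13 (adjusted p = 0.135). The chaperonin subunits Cct4 and Cct3, the 2 of 8 to pass, rose by 0.33 and 0.31. Cct4 passed under all 14 alternatives, while Cct3 was lost in 10, among them without any 1 control or without double KO 1, 3 or 4 (0.23 to 0.33), and was at 0.22 without the libraries that stood apart (adjusted p = 0.147). Nfe2l1 changed by -0.06 (SE 0.0635, adjusted p = 0.545), and in its list of 9 the Vcp cofactor Nploc4 was the 1 that rose (0.31, SE 0.0907). Its call was lost without double KO 1 (0.20), without control 1 (0.24) and without the libraries that stood apart (0.14, adjusted p = 0.102).

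**Figure D4:**
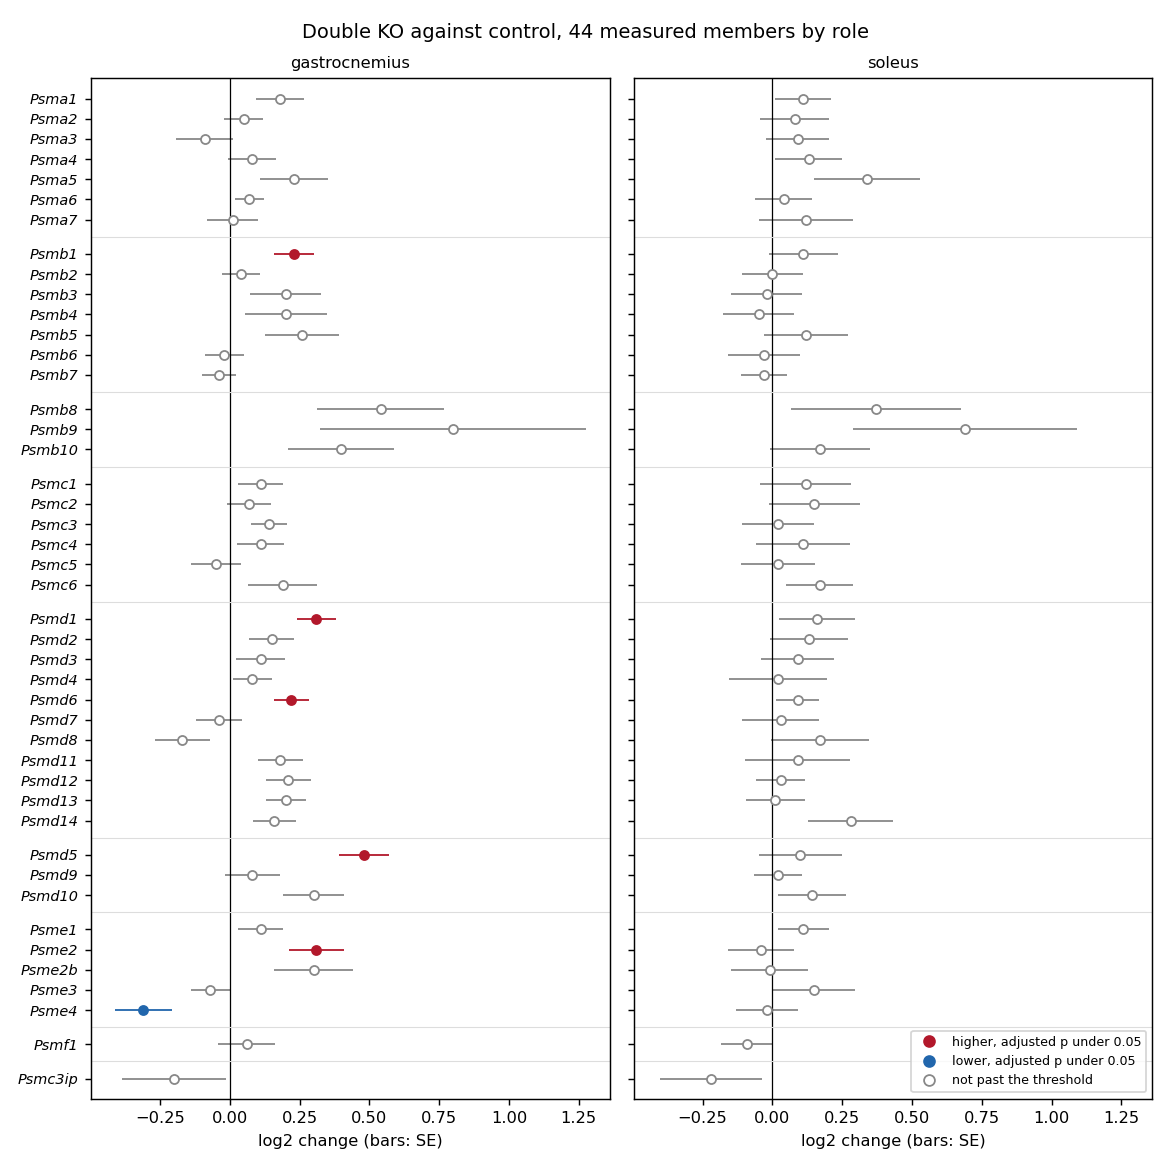
Log2 change of the 44 measured genes in double KO against control (x axis, bars are SE) in gastrocnemius (left) and soleus (right), grouped by role from alpha ring to inhibitor; filled points passed the threshold. In gastrocnemius 5 points are filled to the right and Psme4 to the left, and in soleus none is filled.

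The double KO was also compared with each single knockout in gastrocnemius; these comparisons share the double KO libraries with the one above. Against Acvr1b KO, 7 of the 41 genes were higher (17.1%, against 9.2% of all genes) and 1 lower (7.06%). Against Tgfbr1 KO, 4 were higher (9.76%, against 7.44% of all genes) and 1 lower (5.42%). Psmb1, Psmd1 and Psmd5 were higher in both, by 0.25, 0.29 and 0.40 against Acvr1b KO and by 0.27, 0.23 and 0.35 against Tgfbr1 KO, and Psme4 was lower in both, by -0.34 (SE 0.103, adjusted p = 0.0322) and -0.37 (SE 0.103, adjusted p = 0.0254). The call of Psmb1 was lost in 5 of 14 alternatives against Acvr1b KO (without Acvr1b KO 1, 3 or 4, without double KO 1 at 0.17, and without the filter) and in 6 against Tgfbr1 KO (without Tgfbr1 KO 1, 2 or 3 or double KO 1, without the filter, and with only the groups compared). Against Tgfbr1 KO, Psmd1 (adjusted p = 0.0402) was lost in 8, among them without Tgfbr1 KO 1, 2 or 4 or double KO 2, 3 or 4, and Psmd5 in 2, without Tgfbr1 KO 3 and with only the groups compared. The call of Psme4 was lost against Acvr1b KO without Acvr1b KO 1, 3 or 4 or any double KO library, and against Tgfbr1 KO without Tgfbr1 KO 1, 2 or 3 or double KO 1, 3 or 4. Psmc1, an ATPase whose reads are in part shared with copies, measured 137, 118, 118 and 120 CPM in double KO, 104, 101, 102 and 111 in Acvr1b KO and 95.0, 107, 103 and 114 in Tgfbr1 KO. Its log2 difference was 0.25 in both, at adjusted p = 0.0402 and 0.0495, and its control libraries (106 to 128) overlapped the double KO. Psmc1 missed the threshold against Acvr1b KO without any 1 of the 8 libraries compared, and against Tgfbr1 KO in 12 of 14 alternatives (0.18 to 0.27). Against Acvr1b KO, Psmd12, a lid subunit (0.24, SE 0.0793, adjusted p = 0.0491), Psmd6 (0.23) and Psme2 (0.36) also passed; against Tgfbr1 KO they were at 0.21 (adjusted p = 0.103), 0.19 (adjusted p = 0.057) and 0.25 (adjusted p = 0.115). The call of Psmd12 was also lost without any 1 of the 8 libraries, that of Psmd6 without Acvr1b KO 1 or 2 or double KO 3, and that of Psme2 without Acvr1b KO 2 or 3 or double KO 4. Without the libraries that stood apart, 9 genes were higher and 2 lower against Acvr1b KO, and 5 and 1 against Tgfbr1 KO. Counts over all genes for these fits are not reported here.

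No proteasome gene passed the threshold in either single knockout against control. In gastrocnemius edgeR called 0 of the 41 in Acvr1b KO against control (0.0114% of all genes higher, 0.0171% lower) and 0 in Tgfbr1 KO (0.0171% and 0.154%). At an unadjusted p under 0.05 there were 0 and 1 (Psmd10, at 0.26), beside 775 and 1052 of the 17536 genes tested. DESeq2 also called 0 in both. The median changes were -0.02 and -0.02, with ranges of -0.14 to 0.08 and -0.15 to 0.26. Psme4 measured 387 ± 26.2 CPM in Acvr1b KO and 396 ± 46.5 in Tgfbr1 KO, beside 380 ± 49.8 in controls. The departure of the double KO from the sum of both single changes reached the threshold for 0 of the 41 (1.48% of all genes higher, 0.667% lower). At an unadjusted p under 0.05 there were 10, beside 2609 of the 17536 genes tested. Of the 41, 37 were above 0, where the median over all genes was 0.01. DESeq2 called 1, Psmc1, whose departure was 0.39 (SE 0.113, edgeR adjusted p = 0.0848).

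In soleus edgeR called 0 of the 41 genes and 0 of the 3 immunoproteasome genes in every comparison of genotypes, as did DESeq2 for the 41. Among all genes tested in soleus the shares called were also small: 0.22% higher and 0.502% lower in double KO against control, 0.00551% and 0.0165% in Acvr1b KO, and 0% and 0.0496% in Tgfbr1 KO. Counts at an unadjusted p under 0.05 were 0 in each of these 3 comparisons, beside 2219, 353 and 410 of the 18143 genes tested. They were 1 for double KO against Acvr1b KO (2030 of all genes), 2 against Tgfbr1 KO (1656) and 1 for the departure from additivity (614). Past the adjusted threshold the shares of all genes in these last comparisons were 0.0386% higher and 0.0882% lower, 0.0331% and 0.0165%, and 0% and 0%. Psme4 measured 155, 162, 147 and 149 CPM in control soleus and 144, 136, 152 and 172 in double KO, which overlapped (-0.02, SE 0.112). Psme2 changed by -0.04 (SE 0.118) and Psmd1 by 0.16 (SE 0.136). Nfe2l1 changed by -0.18 (SE 0.140, adjusted p = 0.645).

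Whether the change in double KO against control differed between the 2 muscles was tested as the difference of both changes. It passed for 0 of the 41 genes (0.299% of all genes higher, 0.433% lower). At an unadjusted p under 0.05 there were 2, beside 1652 of the 18726 genes tested: Psme2 (-0.34, SE 0.149, adjusted p = 0.474) and Psmd5 (-0.38, SE 0.175, adjusted p = 0.526). For Psme4 it was 0.30 (SE 0.153, adjusted p = 0.6). The fit did not pair the 2 muscles of a mouse, and 0 of the 41 also passed with the mouse as a block. The fall of Psme4 and the rise of Psme2 in gastrocnemius were thus not shown to differ from soleus.

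Mouse 1 of the double KO set the spread of its group. Over the 31 subunits of the 20S core and 19S particle, its soleus library was above the control mean for 31 of 31, with a median of 0.44 on the log2 scale. The other 3 double KO soleus libraries were at -0.16, -0.07 and -0.04, and the 12 soleus libraries of other genotypes lay between -0.18 and 0.15. Its gastrocnemius library was above the control mean for 30 of 31 subunits, with a median of 0.21, and the other 3 were at 0.04, 0.08 and 0.07. In the soleus of this mouse Psmd8 measured 205 CPM against 102, 119 and 130 in the others, Psmc1 180 against 105, 112 and 112, and Psme3 113 against 69.1, 68.2 and 70.4. Psme4 (144 CPM), Psme1 (27.8) and Psmb10 (3.10) were not raised in it.

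The same library held 1770 CPM of Sqstm1, the autophagy receptor, against 330 to 414 in the other double KO soleus libraries, and 806 of Trim63 against 138 to 215. In gastrocnemius Trim63 was 1900 CPM in mouse 1 against 391 to 545, and Fbxo32 2280 against 793 to 1040. Its leukocyte marker sums, 152 and 165 CPM, were the highest of their groups. In its soleus slow myofibre markers summed to 12700 CPM against 23500 to 25700 in the other 3, and endothelial markers to 354 against 526 to 560. The part of these in its subunit levels was not tested. Without double KO 1 the median change of the 41 genes was -0.07 in soleus, in place of 0.09, and 0.07 in gastrocnemius, in place of 0.11. There 3 of the 41 were then higher (Psmd1, Psmd5, Psmd6), and Psmd8 was lower in place of Psme4. Outside the 41, the immunoproteasome gene Psmb10 also passed as higher in that fit (0.54, edgeR adjusted p = 0.0371). Over all genes 1984 of 17770 were higher and 1714 lower in that gastrocnemius fit.

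**Figure D5:**
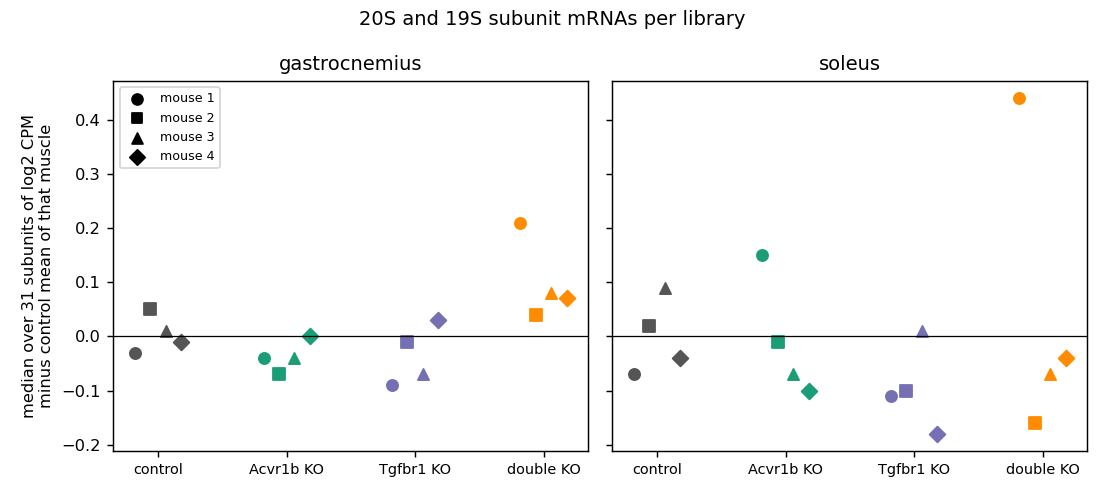
Median over 31 subunits of log2 CPM minus the control mean of that muscle (y axis) for each library, by genotype (x axis), in gastrocnemius (left) and soleus (right); marker shape gives the mouse. Double KO mouse 1 lies at 0.21 and 0.44, and the other double KO libraries at 0.04 to 0.08 and -0.16 to -0.04.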

How the data were processed

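Poly-A RNA of 32 muscles was sequenced, 4 mice per genotype and 2 muscles per mouse. The authors deposited estimated counts per Ensembl gene, made with featureCounts (version 2.0.1 per the submitters' processing notes) on GRCm38.p6 with Ensembl 102 annotation, reverse-strand setting 2 and fractional counting of reads that map to several places, per the file headers. The notes also name cutadapt, HISAT2, FastQC 0.11.9 and DESeq2. Of 55487 gene identifiers, 55227 were given symbols from GENCODE M21, and 260 had none. Total counts ran from 16535498 to 54456977 per library.

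The estimated counts were rounded to whole numbers. edgeR 4.0.16 (R 4.3.3) was run with TMM scaling, filterByExpr (minimum count 10) and robust quasi-likelihood tests, with p-values adjusted by Benjamini-Hochberg over all genes tested and a threshold of 0.05. Genotypes were compared within each muscle over its 16 libraries (17536 genes in gastrocnemius, 18143 in soleus), and muscles over all 32 (18726 genes). Levels were expressed as CPM, with library sizes scaled by TMM. Differences per mouse used log2 of CPM plus 0.1. The procedure was tested on simulated counts.

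Within a muscle, equal replicate numbers are different mice. Across muscles they mark the same mouse by the animal number in the labels, and the deviations of the 16 pairs correlated at r = 0.034 to 0.579.

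Named are the proteasome genes past the threshold, up to 12 higher and 12 lower per comparison, the 3 pairs of catalytic subunits, the activators, the inhibitor, the 3 highest and 3 lowest per length, those filtered out, and up to 4 called genes per related list with Nfe2l1. Some genes of the related lists are counted but not reported by name here. Other genes were chosen after their values were seen. The genes and lists were chosen with earlier results of these data known. Alternatives were RLE size factors, no filter, DESeq2 1.42.0, a replicate block, only the groups compared, each library left out and, chosen after seeing the data, the 4 libraries that stood apart left out.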

Additional observations from a re-analysis of the deposited data

Results flagged for a closer look

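A library whose value lay far from the other 3 of its group, by Dixon's 95% criterion, occurred in 38 of 360 gene and group combinations, where chance gives about 1 in 20. Double KO mouse 1 accounted for 17 of the 38.

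In its soleus the core subunits Psma1 (85.1 CPM against 62.6 to 65.9 in the other 3), Psma3 (99.7 against 71.3 to 73.7) and Psmb1 (125 against 88.9 to 92.7) were high. So were the 19S subunits Psmc1 (180 against 105 to 112) and Psmd12 (126 against 103 to 104) and the activator Psme3 (113 against 68.2 to 70.4). Among related genes, Usp14 was at 62.4 CPM (37.8 to 40.0), Zfand2a at 27.9 (10.9 to 13.7), Rad23b at 195 (104 to 110), Sqstm1 at 1770 (330 to 414), Cct3 at 157 (59.4 to 61.8), Cct4 at 153 (92.0 to 98.0) and Trim63 at 806 (138 to 215). In its gastrocnemius Psmb1 was at 94.1 CPM (79.4 to 80.4), Psmc1 at 137 (118 to 120), Trim63 at 1900 (391 to 545) and Fbxo32 at 2280 (793 to 1040). The gastrocnemius of double KO mouse 2 held 0.94 CPM of Psmb9 against 0.328 to 0.432.

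Among control libraries, gastrocnemius control 1 stood apart in Psmb4 (43.6 CPM against 77.4 to 80.7), Psme2 (8.59 against 10.7 to 10.9), Psmd12 (114 against 92.1 to 95.3) and Cblb (43.5 against 38.8 to 39.0), and gastrocnemius control 4 in Ddi2 (84.6 against 88.9 to 89.3). Soleus control 3 was highest in Psmb4 (102 against 89.2 to 91.0), Psmb5 (41.9 against 34.6 to 35.5) and Psmb7 (132 against 126 to 126).

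In Acvr1b KO gastrocnemius the values apart were Psmb4 in mouse 1 (66.2 CPM against 76.3 to 78.0), Uba6 in mouse 1 (4.61 against 3.66 to 3.81) and Zfand2a in mouse 2 (12.6 against 11.1 to 11.3). In Acvr1b KO soleus they were Psmb5 (47.2 against 32.4 to 34.9), Nfe2l1 (853 against 1110 to 1140) and Nploc4 (77.0 against 102 to 107) in mouse 1, and Fbxo32 (277 against 366 to 374) in mouse 3. In Tgfbr1 KO gastrocnemius they were Psmd8 in mouse 1 (198 against 213 to 216), and Psme4 (327 against 415 to 426) and Usp14 (36 against 52.0 to 53.0) in mouse 4. In Tgfbr1 KO soleus they were Usp14 in mouse 1 (43.1 against 31.1 to 32.8) and Ecpas in mouse 3 (176 against 156 to 159).

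The double KO change of the interferon-induced gene Ifit1 differed between muscles by a test of the difference itself. It was 1.21 in gastrocnemius and -0.30 in soleus on the log2 scale, a difference of -1.50 (SE 0.351, edgeR adjusted p = 0.0334).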

How the results depend on the processing

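The 63 called values named for single genes were recomputed under other settings, 819 values in all, of which 631 kept the call, 188 lost it and 0 reversed the direction. Where counts moved, the cause was not tested. Counts over all genes moved too. Double KO gastrocnemius had 1991 of 17536 genes higher than control, 1755 of 32217 without the filter and 1284 of 17022 with only these groups. Between control muscles 4363 of 18833 were higher without the 4 libraries that stood apart, from 3837 of 18726. They were 3163 of 35164 without the filter and 3176 of 17122 with only these groups. Without the filter on low counts the genes higher numbered 2 (from 5) in double KO against control, 3 (from 7) against Acvr1b KO and 1 (from 4) against Tgfbr1 KO in gastrocnemius, and 5 (from 8) in control soleus against gastrocnemius. With only the groups compared in the fit they were 2 higher and 0 lower against control, 0 higher against Tgfbr1 KO, and 5 higher in soleus. DESeq2 gave 7 higher against Tgfbr1 KO and 1 for the departure from additivity. For comparisons with the single knockouts and for the departure from additivity, counts over all genes under other settings are not reported here. The same holds for the double KO effect of soleus minus gastrocnemius. Without the 4 libraries that stood apart, 13 were higher in control soleus, 2 were lower against Acvr1b KO and 1 (Psmd12) in the double KO effect of soleus minus gastrocnemius. Leaving out 1 library at a time gave 3 to 6 higher and 0 to 1 lower against control, 3 to 6 and 0 to 1 against Acvr1b KO, 1 to 4 and 0 to 1 against Tgfbr1 KO, and 4 to 9 higher between control muscles. The replicate block left 0 lower against control (Psme4 -0.31, adjusted p = 0.0511); within a muscle these numbers are different mice (r of deviations -0.261 to 0.300). With the block Psmb1 against control (0.22, adjusted p = 0.0532), Psmd12 against Acvr1b KO (adjusted p = 0.0503) and Psmc1 against Tgfbr1 KO (adjusted p = 0.0558) also missed the threshold.

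Values that changed sign were near 0 and called under no setting. Leaving out 1 library gave, for double KO against control in gastrocnemius, -0.02 to 0.13 for Psmf1 and -0.06 to 0.01 for Psmb6. In soleus it gave -0.07 to 0.01 for Psmb7, -0.01 to 0.22 for Psmb5, -0.10 to 0.03 for Psme2, -0.08 to 0.04 for Psme4, -0.11 to 0.05 for Psmb6 and -0.09 to 0.22 for Psme3, and between control muscles -0.07 to 0.17 for Psmb5. Without the libraries that stood apart Psmf1 was at -0.03 in gastrocnemius, Psmb5 at -0.01 and Psme3 at -0.09 in soleus, and Psmb5 at -0.05 between muscles. Total counts per library differed by up to 3.29 times, and Psmb9, with 649 counts in all libraries, is limited by depth.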
